A study of Mus musculus with 12 samples.

Results

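The export pumps of the bile canaliculus, the narrow channel between hepatocytes into which bile is secreted, were followed through 12 mouse liver arrays. The 9 genes were listed by name: Abcb11, Abcb4, Abcb1a, Abcb1b, Abcc2, Abcg2, Abcg5, Abcg8 and Atp8b1. All 9 were measured, among 18193 genes in all, by 11 probe sets, the groups of short probes that read a transcript on an Affymetrix GeneChip. Abcb1a and Abcb1b had more than 1 probe set, and the one with the highest mean over the 12 arrays stood for the gene. The arrays held liver RNA in 3 groups of 4 arrays from C57Bl/6 mice at 3 months of age: wildtype without an agent, Atp7b-/- without an agent, and Atp7b-/- that were Zn treated. Atp7b encodes the copper ATPase by which hepatocytes send copper to bile, and its loss underlies Wilson disease. The sources used here give neither the making of the allele nor the dose or duration of zinc. Per the labels 4 mutant mice received zinc, but nothing ties each array of the other groups to an animal of its own, and the spread that p-values rest on may be partly technical. Whole livers were measured, and fewer cells of a type and less RNA per cell cannot be told apart in them.

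These transporters act at the membrane of the canaliculus. Abcb11 (the bile salt export pump) moves bile salts into the canaliculus, and Abcb4 (Mdr2) flips phosphatidylcholine to the outer leaflet, where the bile salts take it up into mixed micelles. Atp8b1 flips aminophospholipids back to the inner leaflet, and Abcg5 with Abcg8 exports cholesterol and plant sterols as a pair of half-transporters. Abcc2 (Mrp2) exports bilirubin glucuronide and glutathione conjugates, Abcg2 exports sulfated conjugates, porphyrins and drugs, and Abcb1a and Abcb1b are the mouse P-glycoproteins, which export hydrophobic drugs. In humans, inherited defects of ABCB11, ABCB4 and ATP8B1 cause cholestasis.

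Levels are log2 intensities as deposited, so that a difference of 1 is a doubling, and a level is compared only with the same probe set on other arrays. In a limma fit of the 3 groups, the threshold for a call was 0.05 on p-values adjusted by Benjamini-Hochberg over all genes. Hepatocyte markers were high on every array, with a mean between 13.70 and 14.07. Atp7b itself had a mean of 8.60 in wild type, and changed by -1.49 in untreated Atp7b-/- (adjusted p = 2.04e-07) and by -1.77 with zinc (adjusted p = 1.22e-07). Over all its probe sets the changes were -0.90 and -0.96 (adjusted p = 1.44e-06 and 2.46e-06). Whether its probe set lies in the altered stretch is not known here. Zinc-treated replicates 2 and 3 carried pancreatic acinar transcripts, with a mean of 11 markers of 9.65 and 6.96 against 5.52 to 5.81 on the other 10 arrays, and pump results with zinc that move without them by over 1.5 times, or lose their call, are given without them too. Of the 11 markers none passed the test in any comparison. The excess of 3' over 5' signal at control probe sets for actin and Gapdh, which grows with RNA degradation, was 0.79 to 0.88 in the untreated mutants, 0.62 to 0.78 in wild type and 0.54 to 0.74 with zinc. In both comparisons that use the untreated mutants, RNA quality and group cannot be told apart. In untreated Atp7b-/- against wild type 14.3% of all genes were called higher and 10.3% lower. Of macrophage markers 7 of 10 fell there, with a mean of 7.25 to 8.25 against 7.70 to 8.63 in wild type. The arrays of these groups overlapped for all 10. Of 10 endothelial markers 2 rose and 3 fell, with a mean of 7.43 to 7.58 against 7.43 to 7.61, and of 8 cholangiocyte markers 2 rose, with a mean of 5.54 to 5.77 against 5.52 to 5.54. Their part in the pump results was not tested.

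RefSeq promoter sequence (build GRCm38.p6) was used for 8 of the 9 genes, and Atp8b1 was left out. The 250 bases before the annotated start of transcription were searched on both strands. The motifs were the CCAAT box (CCAAT), the GC box (GGGCGG), the AP-1 site (TGANTCA), the core of the antioxidant response element (TGACNNNGC), the nuclear receptor half-site (AGGTCA) and its inverted repeat with 1 base between, the TATA box (TATAAA) and the p53 half-site. Capitals mark every match, and in the windows printed no match overlaps another. The first pair shows the windows of the 2 P-glycoprotein genes, of which 1 was called lower with zinc. Those of Abcb11 and Abcc2 belong to the other pumps that changed in both comparisons with untreated Atp7b-/-. The last sequence is the stretch between the start of Abcg5 and the nearer of 2 annotated starts of Abcg8, which run in opposite directions. The window before the other Abcg8 start held 0 matches.
Abcb1b (chr5:8797897-8798146, plus strand): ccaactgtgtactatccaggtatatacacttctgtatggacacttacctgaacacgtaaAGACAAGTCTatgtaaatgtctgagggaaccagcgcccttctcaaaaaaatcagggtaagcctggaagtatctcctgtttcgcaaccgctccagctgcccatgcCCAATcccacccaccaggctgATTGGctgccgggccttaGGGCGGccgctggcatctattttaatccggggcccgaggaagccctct
Abcb1a (chr5:8566841-8567090, plus strand): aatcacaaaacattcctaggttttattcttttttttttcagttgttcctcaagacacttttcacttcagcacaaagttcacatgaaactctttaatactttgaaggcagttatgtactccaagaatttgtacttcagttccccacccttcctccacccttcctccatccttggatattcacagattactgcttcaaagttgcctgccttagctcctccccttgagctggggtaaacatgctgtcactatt
Abcb11 (chr2:69342617-69342866, minus strand): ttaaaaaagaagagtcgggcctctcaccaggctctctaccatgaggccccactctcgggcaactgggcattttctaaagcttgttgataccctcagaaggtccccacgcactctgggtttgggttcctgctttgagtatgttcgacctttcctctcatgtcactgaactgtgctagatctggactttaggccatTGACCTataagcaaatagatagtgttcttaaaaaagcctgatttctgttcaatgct
Abcc2 (chr19:43782058-43782307, plus strand): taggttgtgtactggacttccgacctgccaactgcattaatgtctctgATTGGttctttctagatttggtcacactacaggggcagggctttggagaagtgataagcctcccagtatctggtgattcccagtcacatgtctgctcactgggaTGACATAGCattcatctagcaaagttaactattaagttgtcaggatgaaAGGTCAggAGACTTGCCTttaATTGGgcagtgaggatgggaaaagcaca
Abcg5-Abcg8 (chr17:84683012-84683120, plus strand): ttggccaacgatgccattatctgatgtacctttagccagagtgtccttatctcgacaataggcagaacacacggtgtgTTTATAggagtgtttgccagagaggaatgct

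The Abcb1b window held 4 matches: a p53 half-site that begins 191 bases before the start, CCAAT boxes at 87 and, on the other strand, 66 bases, and a GC box at 48 bases. The Abcb1a window of the same length held 0. In the Abcb11 window the nuclear receptor half-site lay on the other strand at 56 bases. Abcc2 had CCAAT boxes on the other strand at 202 and 28 bases, an antioxidant response element core at 98, a nuclear receptor half-site at 49 and a p53 half-site at 41. The 109 bases between the Abcg5 and Abcg8 starts held a TATA box that reads toward Abcg5, at 84 bases before its start. Among all 32851 windows of 250 bases, 33.8% held a CCAAT box, 32.7% a GC box, 14.0% a nuclear receptor half-site, 12.4% a TATA box, 10.2% an antioxidant response element core and 7.13% a p53 half-site. A match describes the letters in a window and is not a measured binding site.

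Loss of Atp7b went with higher levels of most of these pumps and lower levels of the bile salt pump and 1 sterol half-transporter. Of 9 pumps, 5 rose (Abcb1b, Abcb1a, Abcc2, Abcb4 and Abcg2) and 2 fell (Abcb11 and Abcg8), while Abcg5 and Atp8b1 did not pass. Over all genes tested 24.6% were called in this comparison, 14.3% higher and 10.3% lower. The median change of the 9 was 0.39, beside -0.049 over all genes. For 4 of the risen and both fallen genes no array of one group reached the range of the other, which was so for 26.4% of all genes, 14.3% upward and 12.1% downward. Of the calls over all genes, 58.2% were higher on the deposited scale, against 49.6% with quantile normalization and 67.9% when each array was centred on its median, and the same 7 pumps were called in the same direction under all 3 scalings.

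**Figure D1:**
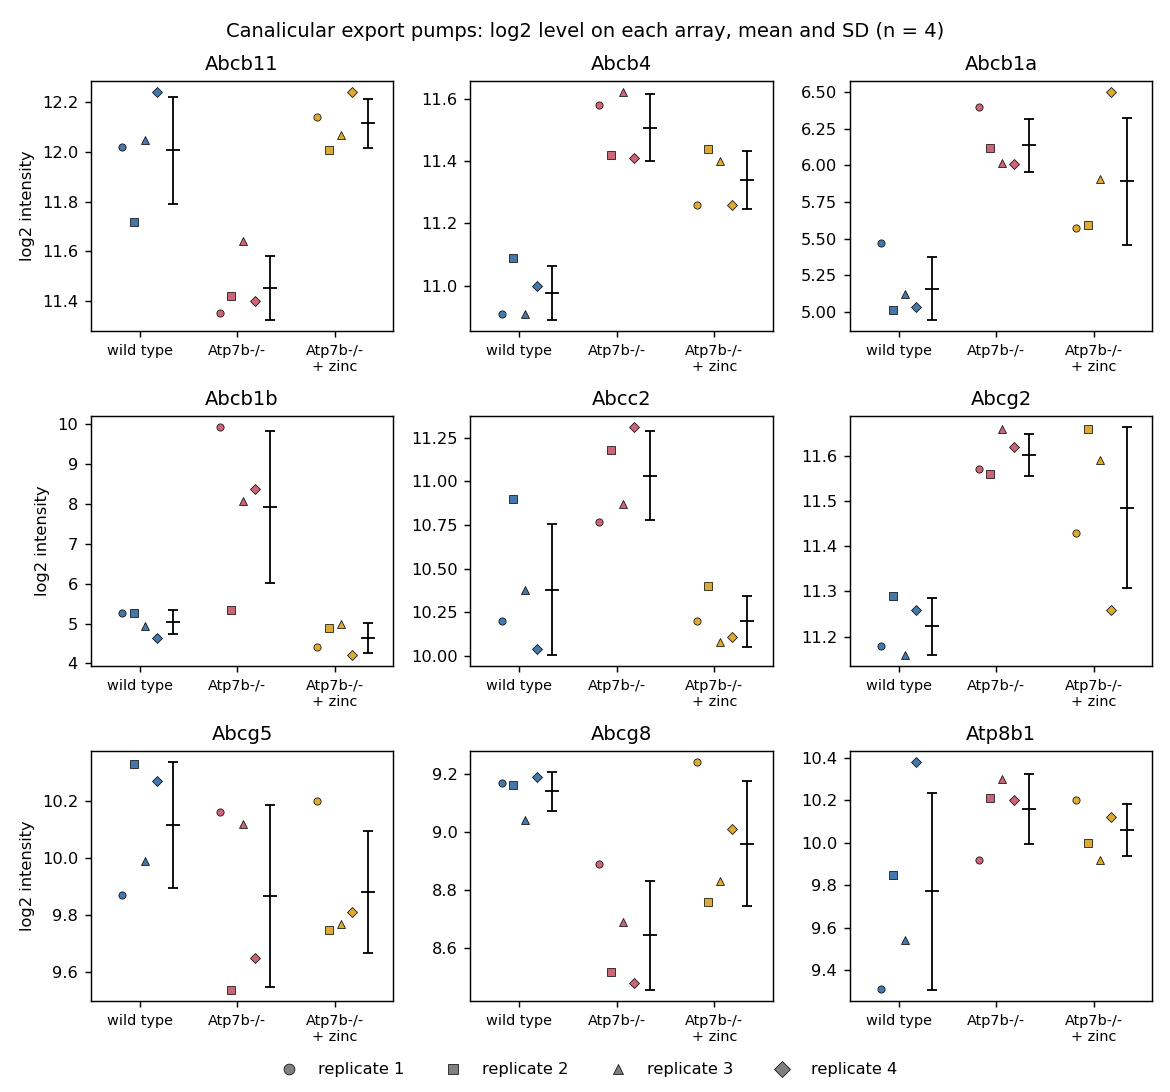
Log2 intensity (y axis, a separate scale for each gene) of the 9 pump genes on each of the 12 arrays, by group; marker shape gives the replicate number, and the bar beside each group is its mean with the SD over 4 arrays. Abcb11 was lower and Abcb4 and Abcg2 higher on every untreated Atp7b-/- array than on any wild type array, and Abcb1b was high on 3 of the 4 untreated arrays.

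Abcb11, the bile salt pump, was at 12.02, 11.72, 12.05 and 12.24 in wild type, 11.35, 11.42, 11.64 and 11.40 in untreated mutants and 12.14, 12.01, 12.07 and 12.24 with zinc. Every untreated mutant array lay below every array of the other groups, while the wild type and zinc-treated arrays overlapped. The mean fell from 12.01 ± 0.22 (SD, n = 4) to 11.45 ± 0.13, a change of -0.56 ± 0.11 (SE) to 0.681 of the wild type level (adjusted p = 0.00221). With zinc it was 12.12 ± 0.10, which is 0.66 ± 0.11 or 1.58-fold above untreated mutants (adjusted p = 0.00267). Zinc-treated and wild type livers differed by 0.11, with a 95% interval of -0.13 to 0.34 (adjusted p = 0.630), and by 0.18 without zinc-treated replicates 2 and 3 (adjusted p = 0.542). Without zinc-treated replicates 2 and 3 the rise with zinc was 0.74 (adjusted p = 0.0138). The comparisons of untreated mutants with wild type and of zinc-treated with untreated mutants share the untreated arrays, here and for the pumps below.

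Abcb4, the phosphatidylcholine flippase, was at 10.91, 11.09, 10.91 and 11.00 in wild type, 11.58, 11.42, 11.62 and 11.41 in untreated mutants and 11.26, 11.44, 11.40 and 11.26 with zinc. All mutant arrays, treated or not, lay above all wild type arrays. The rise was 0.53 ± 0.08 (SE) or 1.44-fold without zinc (adjusted p = 0.000362) and 0.36 ± 0.08 or 1.29-fold with it (adjusted p = 0.0137). Zinc-treated and untreated mutants differed by -0.17, with a 95% interval of -0.34 to 0.01 (adjusted p = 0.248), and by -0.25 without zinc-treated replicates 2 and 3 (adjusted p = 0.228). The zinc-treated arrays with pancreatic transcripts were the higher pair, at a mean of 11.42 against 11.26 for the others. Without both the rise against wild type was 0.28 and did not pass (adjusted p = 0.155), and without replicate 2 alone it was 0.33 (adjusted p = 0.0509).

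Atp8b1, the aminophospholipid flippase, was at 9.31, 9.85, 9.54 and 10.38 in wild type, 9.92, 10.21, 10.30 and 10.20 in untreated mutants and 10.20, 10.00, 9.92 and 10.12 with zinc. Wild type replicate 4 was the highest of all 12 arrays, and the other wild type arrays lay below every mutant array. The changes against wild type were 0.39 without zinc (95% interval -0.00 to 0.77, adjusted p = 0.131) and 0.29 with it (-0.10 to 0.68, adjusted p = 0.386). Without wild type replicate 4 they were 0.59 (adjusted p = 0.00630) and 0.49 (adjusted p = 0.0346) and passed. Without wild type replicate 1, the lowest, they were 0.23 (adjusted p = 0.349) and 0.14 (adjusted p = 0.734). Treated and untreated mutants differed by -0.10 (adjusted p = 0.804), and by 0.00 without the zinc-treated arrays that carried pancreatic transcripts. Tmem30a, the subunit that Atp8b1 needs to leave the endoplasmic reticulum, fell by 0.47 in untreated mutants (adjusted p = 0.00251). Averaged over its probe sets its change was -0.24 and did not pass (adjusted p = 0.215).

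The sterol half-transporters did not show the same result. Abcg8 was at 9.17, 9.16, 9.04 and 9.19 in wild type, 8.89, 8.52, 8.69 and 8.48 in untreated mutants and 9.24, 8.76, 8.83 and 9.01 with zinc. It fell by 0.50 ± 0.11 (SE) to 0.710 of the wild type level (adjusted p = 0.00655), and no untreated mutant array reached a wild type one. Zinc-treated arrays reached into both other groups, at 0.32 above untreated mutants (adjusted p = 0.117) and -0.18 from wild type (adjusted p = 0.402). Without the arrays that carried pancreatic transcripts these were 0.48 (adjusted p = 0.0615) and -0.01 (adjusted p = 0.974). Abcg5 was at 9.87, 10.33, 9.99 and 10.27 in wild type, 10.16, 9.54, 10.12 and 9.65 in untreated mutants and 10.20, 9.75, 9.77 and 9.81 with zinc. All 3 groups overlapped, and the change in untreated mutants was -0.25 with a 95% interval of -0.59 to 0.09 (adjusted p = 0.271), and -0.14 without untreated replicate 2. That interval holds the change of Abcg8, and whether the partners differ was not tested. Abcg5 differed by 0.02 between treated and untreated mutants (95% interval -0.32 to 0.36, adjusted p = 0.964) and by -0.23 between treated mutants and wild type (-0.57 to 0.11, adjusted p = 0.445). Without the arrays with pancreatic transcripts these were 0.14 (adjusted p = 0.810) and -0.11 (adjusted p = 0.840).

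Abcc2, the pump of conjugated bilirubin, was at 10.20, 10.90, 10.38 and 10.04 in wild type, 10.77, 11.18, 10.87 and 11.31 in untreated mutants and 10.20, 10.40, 10.08 and 10.11 with zinc. Wild type replicate 2 reached into the range of the untreated mutants, and zinc-treated arrays all lay below them. It rose by 0.65 ± 0.17 (SE) or 1.57-fold in untreated mutants (adjusted p = 0.0132) and changed by -0.84 ± 0.17 with zinc (adjusted p = 0.00985). Zinc-treated and wild type livers differed by -0.19, with a 95% interval of -0.55 to 0.18 (adjusted p = 0.577). Without zinc-treated replicates 2 and 3 the change with zinc was -0.88 and just missed the threshold (adjusted p = 0.0504). The probe set of Abcc2 is of a kind that can bind transcripts of related genes, and no other probe set of the gene was measured.

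Abcg2, the exporter of sulfated conjugates, was at 11.18, 11.29, 11.16 and 11.26 in wild type, 11.57, 11.56, 11.66 and 11.62 in untreated mutants and 11.43, 11.66, 11.59 and 11.26 with zinc. The untreated mutant arrays were closely spaced and above all wild type arrays, a rise of 0.38 ± 0.09 (SE) or 1.30-fold (adjusted p = 0.00641). The zinc-treated arrays spread over both other groups, with replicates 2 and 3 at the level of untreated mutants and replicate 4 at that of wild type. Their difference from wild type was 0.26 (adjusted p = 0.0870), 0.34 without replicate 4 (adjusted p = 0.0291) and 0.12 without replicates 2 and 3 (adjusted p = 0.521). Against untreated mutants it was -0.12, with a 95% interval of -0.30 to 0.07 (adjusted p = 0.475), and -0.26 without replicates 2 and 3 (adjusted p = 0.163). Abcb4, Abcb1b and Abcg2 were higher on both zinc-treated arrays with pancreatic transcripts than on the other 2, and Abcb11, Abcg5, Abcg8 and Atp8b1 were lower, a split noticed after the values were seen. The part of those transcripts in it was not tested.

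In untreated mutants the P-glycoprotein genes carried the largest changes of the 9. Abcb1b was at 5.27, 5.27, 4.94 and 4.65 in wild type, 9.92, 5.34, 8.07 and 8.38 in untreated mutants and 4.42, 4.89, 5.00 and 4.22 with zinc. In untreated mutants 3 arrays were far above all others and replicate 2 was just above the highest wild type array, so the groups did not overlap although the spread within the mutants was 4.58, or 23.9-fold. The mean rose from 5.03 to 7.93 ± 1.91 (SD, n = 4), a change of 2.89 ± 0.66 (SE) or 7.43-fold, with a 95% interval of 2.77 to 19.9-fold (adjusted p = 0.00641). With zinc it was 4.63 ± 0.37, a change of -3.30 from untreated mutants, to 0.102 of their level (adjusted p = 0.00963). The fit used 1 spread for all groups, though the SD was 0.30 in wild type, 1.91 in untreated mutants and 0.37 with zinc. These intervals and p-values do not allow for that inequality. Fitted with only the groups compared, the adjusted p was 0.0206 for the rise and 0.0328 for the change with zinc. Those fits still used 1 spread for both groups, so they do not allow for the inequality either. The rise was 3.76 without untreated replicate 2 (adjusted p = 1.55e-05) and 2.23 without replicate 1 (adjusted p = 0.0110). The change with zinc was -4.16 without untreated replicate 2, -2.63 without replicate 1 and -3.61 without the zinc-treated arrays that carried pancreatic transcripts (adjusted p = 8.4e-05, 0.0145 and 0.0463). Zinc-treated and wild type livers differed by -0.40, a difference whose interval of -1.83 to 1.02 is wide (adjusted p = 0.785), and by -0.72 without zinc-treated replicates 2 and 3 (adjusted p = 0.725). That interval takes in the spread of the untreated mutants. Fitted on zinc-treated and wild type arrays alone, the adjusted p was 0.263. In both of those groups the gene lay below the medians of the arrays (5.63 to 5.71).

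Abcb1a was at 5.47, 5.01, 5.12 and 5.03 in wild type, 6.40, 6.12, 6.02 and 6.01 in untreated mutants and 5.57, 5.59, 5.91 and 6.50 with zinc. All mutant arrays lay above all wild type arrays, and zinc-treated replicate 4 was the highest of the 12. In wild type the gene lay below the medians of the arrays (5.63 to 5.71). It rose by 0.98 ± 0.18 (SE) or 1.97-fold without zinc (adjusted p = 0.00166) and by 0.74 ± 0.18 or 1.67-fold with it (adjusted p = 0.0250). Treated and untreated mutants differed by -0.24, with a 95% interval of -0.64 to 0.15 (adjusted p = 0.480), and by -0.10 without zinc-treated replicates 2 and 3 (adjusted p = 0.897). Its rise with zinc against wild type lost its call without replicates 2 or 3 of wild type, at 0.69 and 0.72, or replicate 4, at 0.70 (adjusted p = 0.0702, 0.0625 and 0.0519), without zinc-treated replicate 3, at 0.73 (adjusted p = 0.0563), and without both zinc-treated arrays with pancreatic transcripts, at 0.88 (adjusted p = 0.0535). Abcb1a and Abcb1b thus rose together without zinc, and with zinc only Abcb1a passed against wild type. That the 2 differ in their response to zinc was not tested.

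**Figure D2:**
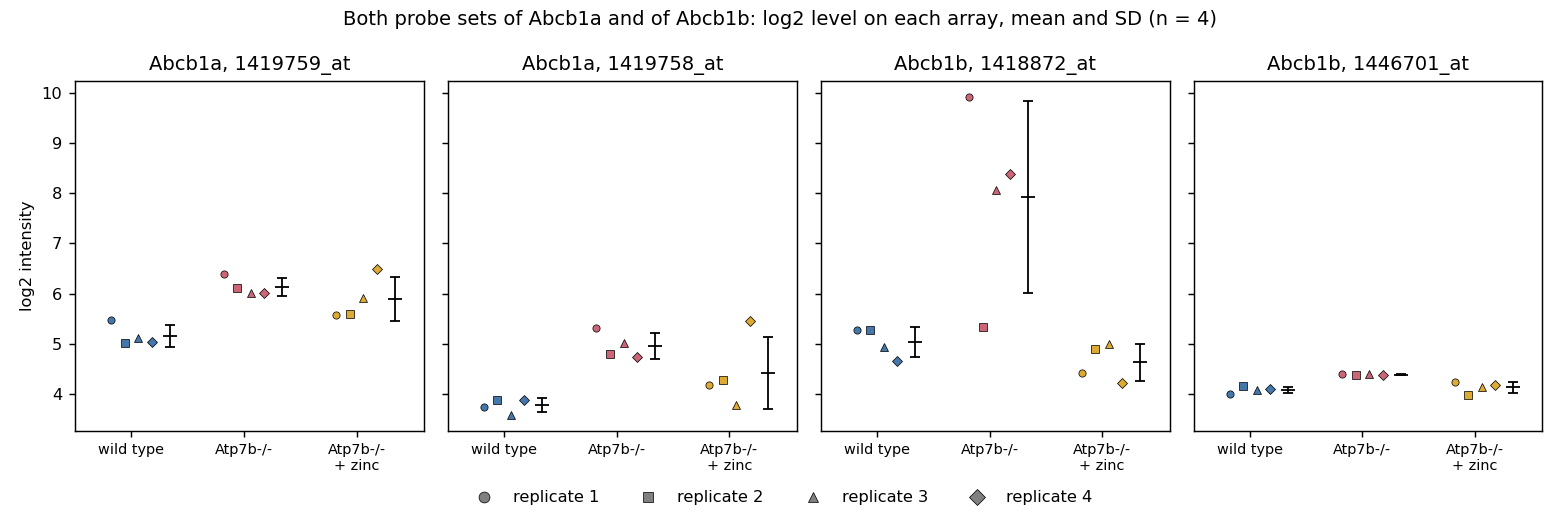
Log2 intensity (shared y axis) on each of the 12 arrays for the 2 probe sets of Abcb1a and the 2 of Abcb1b, by group; marker shape gives the replicate number and bars are means with SD over 4 arrays. Both Abcb1a probe sets rose in untreated Atp7b-/-, and the second Abcb1b probe set stayed between 3.98 and 4.39 where the first reached 9.92.

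The second probe set of each P-glycoprotein gene moved in the same direction in untreated mutants. That of Abcb1a (1419758_at) rose by 1.19 in the fit over 45037 probe sets (adjusted p = 0.00653), where 18.8% of all probe sets were called, 4.47% for zinc-treated against untreated mutants and 4.79% for zinc-treated mutants against wild type. Its wild type mean was 3.78, below the lower quartiles of the arrays (4.13 to 4.29), and its untreated mean was 4.96. Its zinc-treated values were 4.19, 4.29, 3.78 and 5.45. Against wild type it changed by 0.65 with zinc, which did not pass (adjusted p = 0.201). That of Abcb1b (1446701_at), which was designed on an expressed sequence tag, had means of 4.09 and 4.38 in these groups, near the lower quartiles of the arrays (4.13 to 4.29). It rose by 0.30 (adjusted p = 0.0133) and did not pass with zinc against untreated mutants (-0.25, adjusted p = 0.0814). On the untreated arrays it was at 4.39, 4.38, 4.39 and 4.37, and did not follow the spread of the first probe set. As the mean of both probe sets Abcb1b rose by 1.59 without zinc and changed by -1.77 with it, and both passed (adjusted p = 0.00426 and 0.00836). Most of each change came from the first probe set. As such a mean Abcb1a was 0.69 above wild type with zinc and did not pass (adjusted p = 0.0613).

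Abcb1a, Abcb1b and Abcb4 stand next to each other on chromosome 5 in the GRCm38 annotation, with Rundc3b on one side and Crot on the other among measured protein-coding genes. All 3 pump genes rose in untreated mutants. Crot, which encodes the peroxisomal carnitine octanoyltransferase and was looked at for its place after the pump values were known, fell by 0.98 (12.99 to 12.01, adjusted p = 6.57e-05) and rose by 0.74 with zinc (adjusted p = 0.00290). Over all its probe sets the changes were -0.61 and 0.45, and both passed (adjusted p = 0.000355 and 0.0111). Rundc3b was dim, with means of 4.37 and 4.30.

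Between zinc-treated and untreated mutants, 1 of 9 pumps rose (Abcb11) and 2 fell (Abcb1b and Abcc2), where 6.54% of all genes were called, 1.70% higher and 4.84% lower. The groups did not overlap for these 3, as for 15.3% of all genes, 5.93% upward and 9.39% downward. The median change of the 9 was -0.12, beside 0.011 over all genes. Of the calls over all genes, 26.0% were higher on the deposited scale, against 40.2% with quantile normalization and 19.9% with median centring, and these 3 pumps were called under each. Of the cell type markers, 1 of 9 of hepatocytes fell, 2 of 10 of stellate cells rose, and of 10 endothelial ones 1 rose and 1 fell. Of the 8 cholangiocyte markers 0 passed, with a mean of 5.30 to 5.52 with zinc against 5.54 to 5.77 without. The part of these cells in the pump results was not tested. Between zinc-treated mutants and wild type, 2 pumps were higher (Abcb4 and Abcb1a) and 0 lower, where 7.62% of all genes were called, 4.89% higher and 2.73% lower. Both were free of overlap, as were 14.3% of all genes, 7.88% upward and 6.45% downward. Without the zinc-treated arrays that carried pancreatic transcripts, 0 of the 9 passed in that comparison. The other 7 pumps had changes between -0.40 (Abcb1b) and 0.29 (Atp8b1) there. Of 10 macrophage markers 0 passed in that comparison, with a median change of -0.58. The groups did not overlap for 3 of them, all lower, as for 6.45% of all genes downward. Their mean was 7.45 to 7.80 with zinc against 7.70 to 8.63 in wild type. Of 10 endothelial markers 1 was called lower. The part of these markers in the calls of Abcb4 and Abcb1a was not tested.

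**Figure D3:**
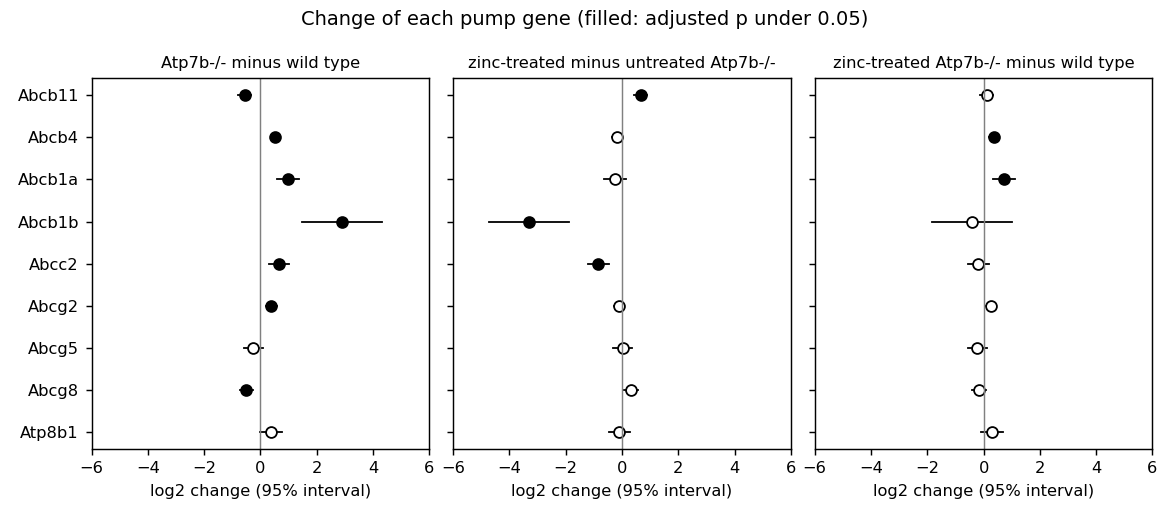
Log2 change of each pump gene (x axis) in the 3 comparisons, with its 95% interval from limma; filled points passed at an adjusted p under 0.05. Abcb1b had the widest intervals, and Abcb11 and Abcb1b lay on opposite sides of 0 in the first 2 comparisons.

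Over the 12 arrays, each pump was set against 8867 genes with a mean above the median of all genes and a symbol that is not a clone or predicted name, and the 3 with the highest Pearson correlation were taken. The arrays share their groups, so any gene that differs between groups in the same order scores high, and the values are a description. Abcb11 was most like Hsd17b6 (0.942), Ppil1 (0.933) and Lrfn3 (0.924), and Abcb1b most like Sphk2 and Fbln1 (both 0.951) and Emc4 (0.946). Abcg2 was closest to Ccng1 (0.950), a p53 target, Plk2 (0.949) and Cplane1 (0.947), and Abcb4 to Phkb (0.973), Scamp5 (0.971) and Atr (0.965). Gstm3 (0.918), Dpysl2 (0.915) and Exd2 (0.911) came closest to Abcb1a, and Ttc37 (0.932), Uba6 (0.925) and Rab5c (0.922) to Abcc2. The sterol partners had no gene in common, with Usp15 (0.948), Smc5 (0.935) and Casp8 (0.928) for Abcg8 and Cactin (0.902), Hspb6 (0.895) and Zdhhc6 (0.888) for Abcg5. Atp8b1 was most like Gldc (0.931), Ireb2 (0.929) and Rap2c (0.919). Among the pumps themselves the correlation was 0.93 for Abcb4 with Abcg2, 0.71 for Abcg5 with Abcg8, 0.46 for Abcb1a with Abcb1b and -0.92 for Abcb11 with Abcc2.

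Of 18 measured genes of 21 listed for factors that control pump genes, 4 rose and 5 fell in untreated mutants, with a median of 0.02, where 14.3% and 10.3% of all genes did. Nr0b2 (Shp), which the bile acid receptor induces, fell by 1.37 (9.84 to 8.47, adjusted p = 0.00197), and Rxra, the shared partner of these receptors, by 0.59 (adjusted p = 0.00427). Nfe2l2 (Nrf2), the oxidative stress factor, rose by 0.70 (adjusted p = 0.00308) and the xenobiotic receptor Nr1i2 (Pxr) by 0.40 (adjusted p = 0.0103). Nr1h4 (Fxr), the bile acid receptor itself, had means of 9.85 and 10.09 in these groups and did not pass (adjusted p = 0.135); it is named here after its values were seen. With zinc 3 of the 18 rose and 3 fell, where 1.70% and 4.84% of all genes did. Nfyb and Nfya, subunits of the factor that binds CCAAT boxes, changed by 0.61 and -0.54 (adjusted p = 0.0120 and 0.00237), the second by -0.17 over all its probe sets (adjusted p = 0.243). Nfe2l2 changed by -0.63 (adjusted p = 0.0193) and Nr0b2 by 1.11 (adjusted p = 0.0231), and these calls were lost in 6 and 5 of 23 other settings. Nr5a2 rose by 0.71 (adjusted p = 0.0199), a call lost in 8, and against wild type it was 0.72 higher (adjusted p = 0.0151), while Nfya changed by -0.47 (adjusted p = 0.00413), or -0.26 over all its probe sets (adjusted p = 0.0670). As the mean of its probe sets Nr5a2 was 0.18 above wild type and 0.12 above untreated mutants.

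A further list of 20 genes, 19 of them measured, held anchors and carriers of apical pumps and also tight junction genes. In untreated mutants 5 of the 19 rose, 1 fell and 13 did not pass, with a median of 0.10. Over all genes 14.3% rose and 10.3% fell, 24.6% in all, which is near the share of this list. Myo5b, the motor that brings pump-bearing endosomes to the canaliculus, rose by 1.16 (7.81 to 8.96, adjusted p = 2.41e-05), the tight junction gene Ocln by 1.08 (adjusted p = 4.94e-05) and the claudin Cldn2 by 0.55 (adjusted p = 0.000345). Over all probe sets the rise of Myo5b was 0.64 (adjusted p = 0.00145) and that of Cldn2 0.35 (adjusted p = 0.0256). With zinc 0 rose and 2 fell, where 1.70% and 4.84% of all genes did. Those that fell were Myo5b, by 0.86 (adjusted p = 0.00156), and Slc9a3r1 (Ebp50), a scaffold of apical transporters, by 0.39 (adjusted p = 0.00711). Myo5b missed as the mean of its probe sets (-0.41, adjusted p = 0.0562), and Slc9a3r1 without the zinc-treated arrays with pancreatic transcripts (-0.33, adjusted p = 0.0804). Against wild type 3 were higher with zinc and 0 lower, where 4.89% and 2.73% of all genes were. These were Ocln, by 1.06 (adjusted p = 0.000198), Cldn2, by 0.46 (adjusted p = 0.00371), and Tjp1, by 0.38 with a call lost in 14 of 23 settings (adjusted p = 0.0481).

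Of 7 other canalicular membrane proteins, 2 rose and 2 fell in untreated mutants, with a median of -0.03, where 14.3% and 10.3% of all genes did. Atp7b, the gene the mutants lack, is counted among the 7 and among those that fell. Its fall is therefore not a result about the list. Besides Atp7b, the adhesion molecule Ceacam1 fell by 0.43 (adjusted p = 0.0125), and the bicarbonate exchanger Slc4a2 and the peptidase Dpp4 rose by 0.36 and 0.31 (adjusted p = 0.00503 and 0.0121). With zinc 0 of these 7 passed against untreated mutants, where 6.54% of all genes did. Of 8 exporters of the basolateral side, which return compounds to blood, 0 rose and 2 fell, with a median of -0.18: the cholesterol and phospholipid exporter Abca1 by 0.38 (adjusted p = 0.00248), with -0.65 over all its probe sets, and Abcc3 (Mrp3) by 0.45 (adjusted p = 0.0410), a call lost in 10 of 23 settings. Over all genes 24.6% were called, which is near the share of this list. None of the 8 passed in either comparison with zinc-treated mutants, where 6.54% (against untreated) and 7.62% (against wild type) of all genes did. Of 37 other ABC genes, 3 rose and 7 fell in untreated mutants, Abca1 and Abcc3 among them, with a median of -0.08, a share near the 24.6% of all genes. The others of largest size were Abcc12 (1.15, adjusted p = 0.0212, lost in 5 of 22 settings), Abcb6 (0.50, adjusted p = 0.00390), Abca9 (0.44, adjusted p = 0.00141), Abcg3 (-0.69, adjusted p = 0.00170), Abca8a (-0.51, adjusted p = 0.0138) and Abca6 (-0.41, adjusted p = 0.00292). Over all its probe sets the change of Abca9 was 0.15 and did not pass (adjusted p = 0.227). Over all probe sets Abcc12 changed by 0.53 (adjusted p = 0.0730) and Abcg3 by -0.44 (adjusted p = 0.00635). With zinc 2 of the 37 rose and 3 fell against untreated mutants, where 1.70% and 4.84% of all genes did. These calls were lost in 15 of 22 settings for Abcc12 (-1.22), in 15 of 23 for Abca3 (-1.06, and -0.45 without zinc-treated replicates 2 and 3), in 9 for Abca6 (0.34), 5 for Abca8a (0.57) and 3 for Abcf3 (-0.47, and -0.25 over all its probe sets). In the last comparison 0 were lower and 1, Abcb6, was higher against wild type (0.48, adjusted p = 0.0135), where 2.73% and 4.89% of all genes were.

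**Figure D4:**
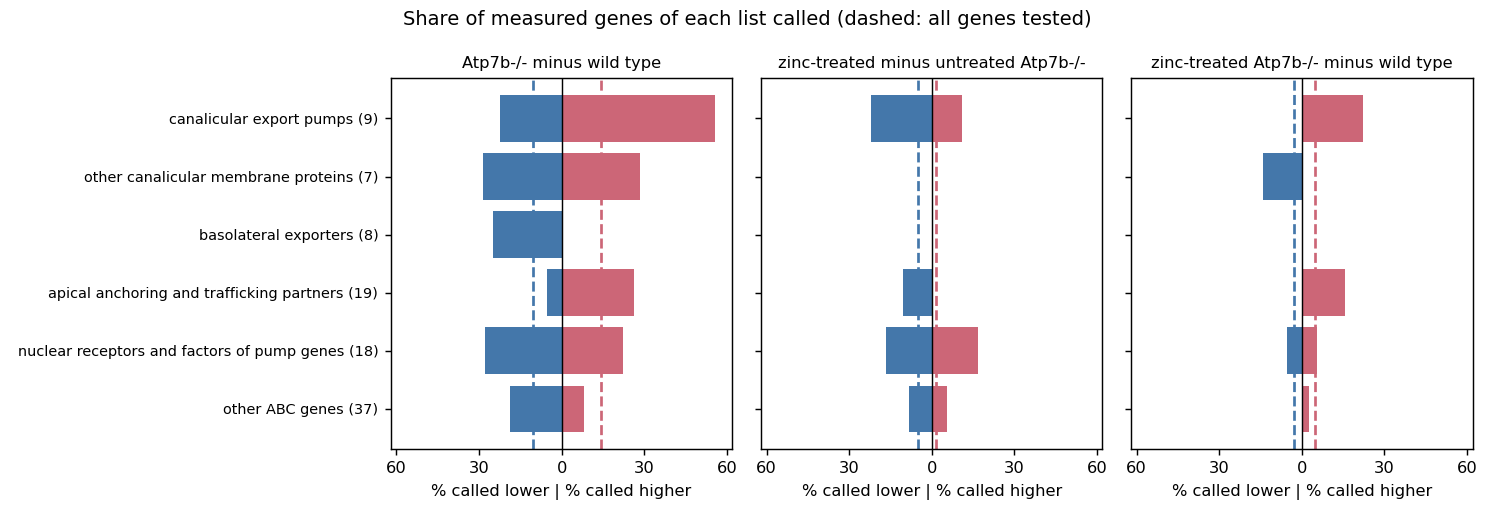
Percent of the measured genes of each list (number in brackets) that were called higher (right) or lower (left) in the 3 comparisons; dashed lines mark the same percent over all genes tested. In untreated Atp7b-/- against wild type 5 of 9 pumps were called higher, where 14.3% of all genes were. Of 8 basolateral exporters 0 were called higher and 2 lower, near the 24.6% of all genes called in either direction. The other canalicular membrane proteins include Atp7b, the gene the mutants lack, among those called lower.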

How the data were processed

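Liver RNA was measured on 12 Affymetrix GeneChip mouse arrays, per the labels. The authors deposited log2 values of 45101 probe sets, normalized between arrays by a method not given in the sources used here, with array medians of 5.63 to 5.71. They were used without further scaling. The number of arrays limits precision. After 64 control probe sets were left out, 34945 probe sets carried exactly 1 gene symbol, 932 several and 9160 none. Symbols were updated through RefSeq gene IDs (GRCm38.p6). Group means of all 12 arrays were fitted with limma 3.58.1 in R 4.3.3 (lmFit, contrasts.fit, eBayes), over 18193 genes and again over 45037 probe sets, and p-values were adjusted within each comparison. In simulated data of 18193 genes, 100 were changed by 1 log2 unit and 100 by 0.5. Of the first, 93, 95 and 95 were recovered in the 3 comparisons in the order of the report. Of the second, 53, 60 and 59 were, with 3, 10 and 8 false calls among unchanged genes. The simulated noise was normal, with the same spread of a gene in every group, and far fewer genes changed than were called in the data. These rates therefore need not hold for the real calls.

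The pumps, the lists, and all tests and alternatives were chosen with earlier results of these data known. All pumps are named. Of each list the text names up to 4 called members by smallest adjusted p per comparison, of other ABC genes up to 4 in each direction by size, and for likeness the 3 closest genes to each pump; Nr1h4, Crot and Rundc3b lie outside this rule, and values of a gene named for 1 comparison may be given in another. Of the marker lists for hepatocytes, lymphocytes and stellate cells, 0 of 9, 0 of 9 and 1 of 10 genes passed in untreated Atp7b-/- against wild type. Over all genes 24.6% passed there.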

Additional observations from a re-analysis of the deposited data

Results flagged for a closer look

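Abcg5 in zinc-treated Atp7b-/- stood out for 1 array: replicate 1 was at 10.20, and the other arrays were at 9.75, 9.77 and 9.81, so that the gap to the nearest made up 0.852 of the range of the group. Of 27 groups of 4 arrays looked at, this was the 1 that passed Dixon's 95% limit, and chance passes about 1 group in 20. Without that array the change of Abcg5 against untreated mutants was -0.09 in place of 0.02.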

How the results depend on the processing

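Over 23 other settings, pump results kept their direction and their side of the threshold in 585 of 615 cases. That total counts results that stayed uncalled. It also counts settings without an array outside the comparison, where the change itself cannot move. The call of Abcb1a with zinc against wild type was lost in 7 of 22 settings. Against a minimum change of 1 log2 unit (limma treat) all 12 pump calls were lost, leaving 0 higher and 0 lower in each comparison. Genes called were then 208, 13 and 53 in the order of the report, in place of 4480, 1190 and 1386, and probe sets 294, 21 and 77, in place of 8475, 2013 and 2158. Array weights gave 1861 genes, 3410 probe sets and 2 pumps higher for zinc-treated against untreated mutants. Without zinc-treated replicates 2 and 3 that comparison had 614 genes, 1004 probe sets and 1 pump lower, and zinc-treated mutants against wild type 699 genes, 979 probe sets and 0 pumps higher. Without probe sets prone to cross-hybridise 1 pump was lower with zinc, since Abcc2 was not tested. The mean of all probe sets, and leaving out dim genes (Abcb1a among them), each left 1 pump higher in zinc-treated mutants against wild type.

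Leaving out each array in turn gave 3292 to 4495, 689 to 1158 and 932 to 1639 genes, and 5869 to 8646, 1102 to 2010 and 1367 to 2595 probe sets. Of single arrays, untreated replicate 4 moved the zinc-treated against untreated counts by over 1.5 times (689 genes, 1102 probe sets), as did zinc-treated replicates 1 and 3 for probe sets (1295 and 1334). For zinc-treated mutants against wild type, leaving out zinc-treated replicates 2 or 4 gave 1367 and 1411 probe sets. Pumps called higher then numbered 5 to 6, 1 to 1 and 1 to 3, and lower 2 to 2, 2 to 2 and 0 to 0. The sign turned for Abcg5 with zinc against untreated mutants (0.02) after median centring (-0.00, adjusted p = 0.996), without untreated replicates 2 or 4 (-0.09 and -0.06) or zinc-treated replicate 1 (-0.09; range over arrays left out -0.09 to 0.12), and for Atp8b1 (0.00 without zinc-treated replicates 2 and 3). The cause was not tested. Abcg8 passed there with array weights (0.38, adjusted p = 0.0325).

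The groups share replicate numbers, and same-numbered arrays correlated above 0.1 in their deviations in 5 of 12 pairs (-0.13 to 0.237). Of the more numerous pairs with different numbers, those above 0.1 were at 0.266, 0.163 and 0.129. Whether same-numbered arrays share more than a number cannot be told from this. With the replicate number as a block 4449, 1171 and 1353 genes and 8507, 2022 and 2156 probe sets were called, and pumps called higher numbered 5, 1 and 2 and lower 2, 2 and 0. An array was closest to its own number in 10 of 24 cases, each a choice among the 4 arrays of another group.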
